A study of Arabidopsis thaliana with 6 samples.

Results

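The genes described here encode the nuclear parts of the photosynthetic light reactions in Arabidopsis thaliana: the light-harvesting antenna proteins of photosystem I (LHCA) and photosystem II (LHCB), the photoprotection protein PSBS, and the nuclear-encoded core subunits of photosystem I (PSA) and photosystem II (PSB). Members were chosen by locus, and all 43 were found among the 26984 genes of the tables: 6 LHCA genes, 15 LHCB genes, PSBS, 12 PSA genes and 9 PSB genes. They were compared between 3 libraries of the hy5-215 mutant (numbered 4 to 6), which has a lesion in the light-signalling transcription factor gene HY5, and 3 libraries of the wild type Col_0 (numbered 1 to 3). Both genotypes were whole seedlings, 7 days old, grown in short days and sampled at zeitgeber time 20 h, that is, in the dark part of the cycle. Expression was measured by RNA-seq and deposited as FPKM (fragments counted on a gene, scaled to its length and to all mapped fragments of the library), so that levels of different genes can be set side by side per length.

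Antenna proteins hold chlorophyll and carotenoids and pass absorbed light energy to the reaction centres. LHCB1, LHCB2 and LHCB3 form the major trimeric antenna of photosystem II, LHCB4 to LHCB6 link it to the core, and LHCA1 to LHCA4 form a belt on one side of photosystem I. The core subunits encoded in the nucleus dock electron carriers, stabilise the water-splitting centre or bind the antenna, while the reaction centre proteins themselves are encoded in the chloroplast. Antenna transcripts are well known to be induced by light and gated by the circadian clock, and HY5 is known to bind G-box and related ACGT elements in promoters of light-regulated genes.

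Several members are near copies of each other, which bears on how reads could be assigned to them. Of the 5 LHCB1 genes, LHCB1.2, LHCB1.1 and LHCB1.3 lie in a row on chromosome 1, with 1153 and 1915 bases between neighbours, and LHCB1.5 and LHCB1.4 lie head to head on chromosome 2, with 1038 bases between their starts (RefSeq TAIR10.1 annotation). The first 54 coding bases of each are shown, 5′ to 3′ from the start codon, with the bases that differ from LHCB1.3 in capitals, because these differences are what can separate the copies.
LHCB1.1: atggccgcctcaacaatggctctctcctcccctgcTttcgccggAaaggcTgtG
LHCB1.2: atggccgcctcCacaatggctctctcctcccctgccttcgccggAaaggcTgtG
LHCB1.3: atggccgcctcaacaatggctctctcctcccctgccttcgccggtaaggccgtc
LHCB1.4: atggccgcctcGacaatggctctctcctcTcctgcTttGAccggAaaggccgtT
LHCB1.5: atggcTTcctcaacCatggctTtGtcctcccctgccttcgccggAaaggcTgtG
The capitals numbered 4 in LHCB1.1 and in LHCB1.2, 7 in LHCB1.4 and 8 in LHCB1.5. Over the whole coding sequence the chromosome 1 copies were 95.6% to 96.4% identical to each other, LHCB1.4 and LHCB1.5 were 91.4% identical, and identity between the clusters was 86.8% to 90.4%. Of all windows of 50 bases along each LHCB1 transcript, 10.6% to 20.5% also occurred in another gene. With windows of 100 bases this was 1.51% to 4.44%. LHCB2.1 and LHCB2.2 shared 22.7% and 28.2% of their windows of 50 bases, and LHCA2 shared 8.76% with AT5G28450. The other 35 members, LHCB2.3 and all core genes among them, shared no window of 50 bases with another gene.

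Stretches of 150 bases upstream of the annotated gene start are shown for the LHCB1 genes that rose, their most abundant relative LHCB1.3, the other antenna genes that rose, and the PSAH pair that fell. They read 5′ to 3′ towards the gene. Capitals mark CACGTG (the G-box), GATAAG (the I-box), AAAAATCT (a CCA1-binding site) and CCAAT, each on either strand.
LHCB1.4 (chr2:14524457-14524606, plus strand): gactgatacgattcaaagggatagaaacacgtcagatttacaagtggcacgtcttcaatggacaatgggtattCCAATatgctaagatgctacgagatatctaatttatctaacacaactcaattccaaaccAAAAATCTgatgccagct
LHCB1.5 (chr2:14523569-14523718, minus strand): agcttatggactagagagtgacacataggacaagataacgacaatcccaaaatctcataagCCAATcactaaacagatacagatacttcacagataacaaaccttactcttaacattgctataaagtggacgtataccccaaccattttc
LHCB1.3 (chr1:10477735-10477884, plus strand): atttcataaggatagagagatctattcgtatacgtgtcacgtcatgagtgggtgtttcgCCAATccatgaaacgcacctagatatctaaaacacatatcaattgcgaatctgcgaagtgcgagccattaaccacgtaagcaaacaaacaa
LHCB2.3 (chr3:10255756-10255905, plus strand): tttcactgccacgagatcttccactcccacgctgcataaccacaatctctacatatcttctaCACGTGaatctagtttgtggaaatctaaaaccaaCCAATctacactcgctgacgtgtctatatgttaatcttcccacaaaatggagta
LHCA4 (chr3:17495034-17495183, minus strand): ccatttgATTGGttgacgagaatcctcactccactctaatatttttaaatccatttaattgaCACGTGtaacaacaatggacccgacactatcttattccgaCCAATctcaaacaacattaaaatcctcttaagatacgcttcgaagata
PSAH2 (chr1:19454648-19454797, plus strand): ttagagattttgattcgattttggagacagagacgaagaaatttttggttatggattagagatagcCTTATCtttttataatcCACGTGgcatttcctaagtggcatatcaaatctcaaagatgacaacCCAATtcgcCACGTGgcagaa
PSAH1 (chr3:5469595-5469744, minus strand): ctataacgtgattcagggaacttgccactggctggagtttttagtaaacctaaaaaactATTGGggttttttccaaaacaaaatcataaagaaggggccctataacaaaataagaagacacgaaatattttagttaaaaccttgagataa
LHCA4 and LHCB2.3, both higher in hy5, have a G-box whose first base lies 88 bases before the start in each. PSAH2, which was lower in hy5, has a G-box at 67 and at 12 bases, while PSAH1, which was also lower, has none in the 250 bases searched. LHCB1.4 has no G-box in that window but holds the 4-base core ACGT at 4 places, among them 122 and 102 bases before the start, and LHCB1.5 holds it once, at 21 bases. LHCA5 and PSBS, which fell, have no G-box in the same window. The other antenna genes with a G-box are LHCB4.1 (at 74 bases), LHCB6 (at 124) and LHCB7 (at 19). The other core genes with a G-box are PSAE2 (at 63), PSBQ1 (at 83 and 55) and PSBQ2 (at 145 and 77). None of these other genes passed the limma threshold in the main fit. On average LHCB4.1, LHCB6, PSAE2 and PSBQ2 were higher in hy5, and LHCB7 and PSBQ1 lower. Whether a G-box goes with a change was not tested. In all, 5 of 21 antenna genes, 4 of 21 core genes and 6.47% of 26983 promoters of the same length hold CACGTG. The shorter ACGT, which every G-box contains, is in 11 of 21 antenna and 11 of 21 core promoters, against 44.0% of all. CCAAT is in 19 of 21 antenna promoters and 9 of 21 core promoters, against 46.0% of all. GATAAG is in 4 antenna and 5 core promoters (12.3% of all), AAAAATCT in 3 and 2 (6.72% of all), and the evening element AAAATATCT in LHCA5 alone among the members (2.33% of all). These matches describe letters in a window and were not tested as binding sites.

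Summed FPKM per library lay between 528554 and 556418, but FPKM is already scaled to mapped fragments, so like sums say little of depth. The steps of the lowest values put relative depth at 0.940 to 1.03 times that of Col_0 1. Only ratios close to equal were searched, so a large difference in depth could not have shown. Absolute depth is unknown. HY5 itself was 3.04, 1.88 and 3.02 FPKM in hy5 4, 5 and 6, against 13.4, 13.0 and 13.9 FPKM in Col_0 1, 2 and 3. Markers of both roots and shoots were measured, and their levels differed between genotypes. Of 4 tested root markers, 2 rose in hy5 (MYB36 and CASP1, genes of the endodermis), beside 11.7% of all genes tested, and the root-hair markers EXPA7 and COBL9 did not pass, with log2 fold changes of -0.37 and -0.36 (limma adjusted p = 0.13 and 0.15). The summed level of 6 root markers was 56.8 to 66.4 FPKM in hy5 and 26.6 to 46.9 FPKM in Col_0, of which CASP1 alone gave 48.3 to 55.7 FPKM in hy5 and 19.2 to 35.7 FPKM in Col_0. Of 7 shoot markers, 4 fell (YAB1, YAB3, TMM and SPCH), beside 11.1% of all genes tested, and STM rose, and their sum was 72.5 to 77.0 FPKM in hy5 and 84.8 to 96.5 FPKM in Col_0. The sum of 4 seed markers was 1.48 to 8.02 FPKM in hy5 and 27.2 to 144.0 FPKM in Col_0, with SESA1 and SESA3 listed at 0 in hy5 6. SESA1, SESA3 and OLEO1 fell, beside 11.1% of all genes tested, and CRA1 did not pass (limma adjusted p = 0.064). Each of the 3 calls was lost without hy5 4, without hy5 6, and with 5 in place of 1 added to FPKM. SESA3 and OLEO1 were also lost without hy5 5, and OLEO1 with 0.1 added. In whole seedlings, fewer cells of a type and less RNA per cell cannot be told apart, and the part these markers play in the results was not tested. Nothing in the labels ties the 3 libraries of a genotype to separately sown or harvested seedlings, and the spread behind the p-values may therefore be technical.

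More antenna genes stood higher than lower in hy5, and core genes were divided. Of 43 members, 4 rose and 4 fell past a limma adjusted p of 0.05 (log2 of FPKM + 1, adjusted over 17205 genes), which is 18.6% of the members beside 22.8% of all genes tested, so the share called was near the background. Among the 21 antenna genes, LHCB1.4, LHCB1.5, LHCB2.3 and LHCA4 rose (11.7% of all genes tested did) and LHCA5 fell (11.1% of all genes tested did). Among the 21 core genes, PSAH1 and PSAH2 fell (9.52%, beside 11.1% of all genes tested) and none passed upwards by limma. At an unadjusted limma p under 0.05, 2 core genes were upward and 4 downward, PSAH1 and PSAH2 among the 4. The share of all genes at that unadjusted p was not counted. PSBS fell. The median log2 fold change, hy5 over Col_0, was 0.16 for the photosystem I antenna, 0.12 for the photosystem II antenna, -0.03 for the photosystem I core, 0.01 for the photosystem II core and -0.00094 over all genes tested. Differences were positive for 17 of 21 antenna genes and 9 of 21 core genes, beside 49.9% of all genes tested. All 43 members passed the filter on low values. The counts moved with single libraries: 7 members were called higher without Col_0 3, 6 were called lower without hy5 5, and 2 were called lower without hy5 6 or without Col_0 2. The photosystem II core median turned negative without hy5 5 (-0.0953) or without Col_0 1 (-0.0754). The median SE of a member was 0.091 on the log2 scale.

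**Figure D1:**
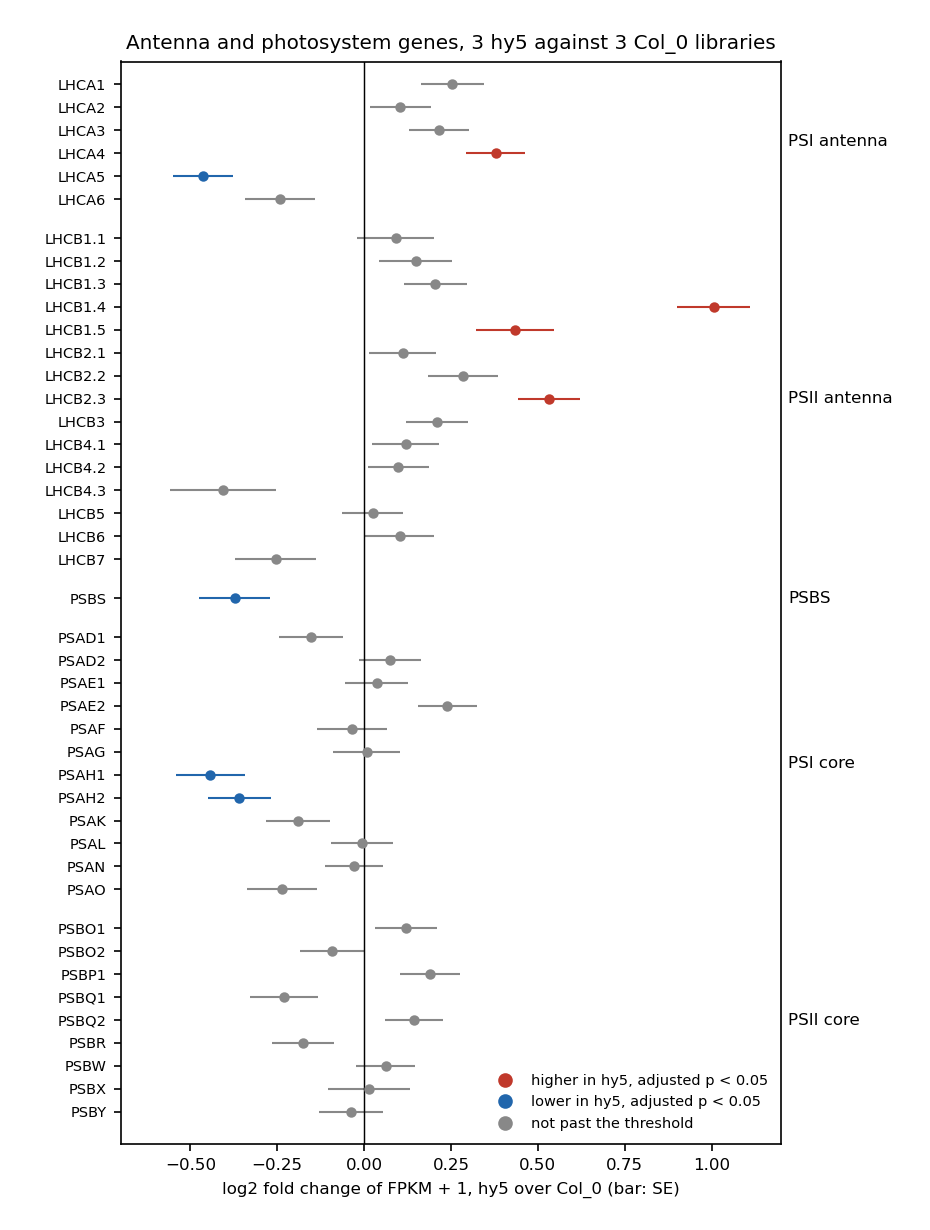
Log2 fold change of FPKM + 1, hy5 over Col_0 (x axis), of each of the 43 genes (y axis, by class), as points with SE bars from limma (3 libraries each). LHCB1.4 stands farthest right at 1.01, LHCA5 farthest left at -0.46, and most core genes lie around 0.

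The major antenna of photosystem II was led by 1 gene. LHCB1.3, also known as CAB1, ranked second of all genes in each of the 6 libraries. It had 12609, 14238 and 13023 FPKM in hy5 4, 5 and 6, against 11197, 11269 and 12120.2 FPKM in Col_0 1, 2 and 3. All hy5 values lay above all Col_0 values, but the difference of 0.20 on the log2 scale (SE 0.090) did not pass (limma adjusted p = 0.12). Of all genes tested, 20.6% had hy5 wholly above Col_0 in this way. Its chromosome 1 neighbours were far lower. LHCB1.1 had 1129 ± 165 FPKM in hy5 and 1056 ± 101 FPKM in Col_0 (SD, n = 3 each), and LHCB1.2 had 603 ± 98.3 FPKM in hy5 and 539.9 ± 6.57 FPKM in Col_0. Neither passed, and the genotypes overlapped in both.

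The LHCB1 pair on chromosome 2 rose. LHCB1.4 (AT2G34430) had 1466, 1252 and 1526 FPKM in hy5 4, 5 and 6, against 672, 648 and 793 FPKM in Col_0 1, 2 and 3. Every hy5 library lay above every Col_0 library, and the means differed 2.01-fold (log2 fold change 1.01, SE 0.10, limma adjusted p = 2.1e-05). LHCB1.5 (AT2G34420) had 2095, 1756 and 1979.5 FPKM in hy5, against 1258, 1399 and 1679 FPKM in Col_0. Here hy5 5 and Col_0 3 came close to each other (log2 fold change 0.43, SE 0.11, limma adjusted p = 0.014). Leaving out hy5 4, hy5 6 or Col_0 1 cost LHCB1.5 its call, at limma adjusted p-values of 0.072, 0.056 and 0.060.

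As a share of all LHCB1 expression, LHCB1.4 made up 8.25%, 6.49% and 8.44% in hy5 4, 5 and 6, against 4.56%, 4.31% and 4.93% in Col_0 1, 2 and 3. The share of LHCB1.3 was 71.0% to 73.8% in hy5 and 75.05% to 76.02% in Col_0, so it was lower in every hy5 library. The ratio of LHCB1.4 to LHCB1.5 was 0.728 ± 0.038 in hy5 and 0.490 ± 0.038 in Col_0, without overlap (exact two-sided permutation p = 0.10, the smallest that 3 against 3 allows, and 0.18 adjusted over 7 paralog ratios). Summed over the 5 genes, LHCB1 stood at 17769 to 19281 FPKM in hy5 and 14730 to 16079 FPKM in Col_0. The chromosome 1 copies summed to 14207 to 16273 FPKM in hy5 and 12799.8 to 13607 FPKM in Col_0, and the chromosome 2 pair to 3008 to 3562 FPKM in hy5 and 1929.8 to 2472 FPKM in Col_0.

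**Figure D2:**
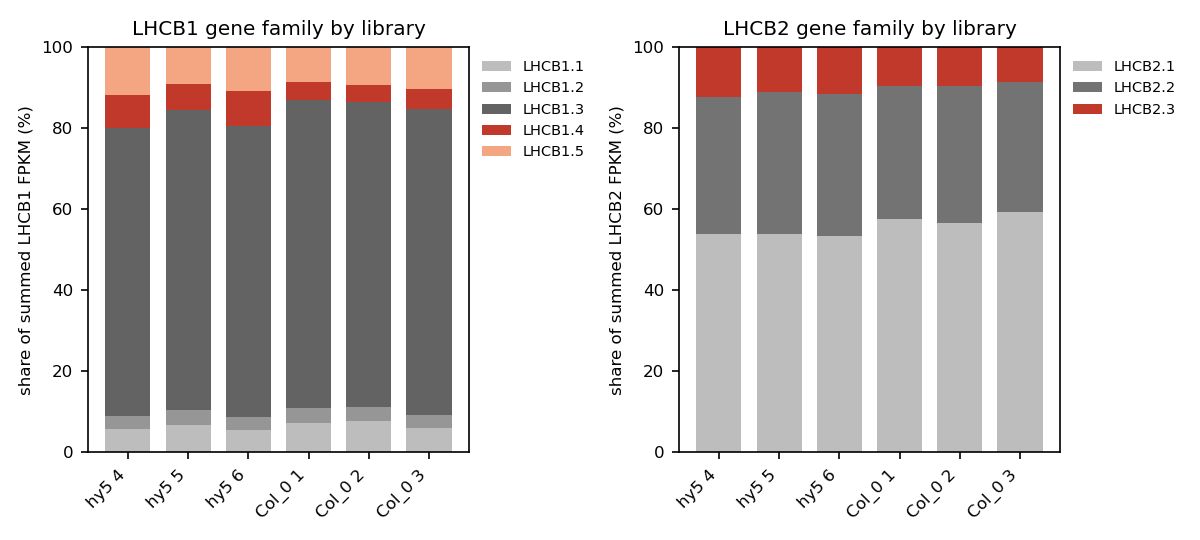
Share of each gene (percent, y axis) in the summed FPKM of the LHCB1 family (left) and of the LHCB2 family (right) in each of the 6 libraries (x axis, 3 hy5 then 3 Col_0). LHCB1.3 fills 70.96% to 73.84% of the hy5 LHCB1 bars and 75.05% to 76.02% of the Col_0 ones, and LHCB1.4 takes 6.49% to 8.44% of the hy5 bars and 4.31% to 4.93% of the Col_0 bars.

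LHCB2 proteins are the antenna subunits whose phosphorylation drives state transitions, the movement of antenna between the photosystems. LHCB2.3 (AT3G27690) had 118, 131 and 123 FPKM in hy5 4, 5 and 6, against 82.0, 93.8 and 81.0 FPKM in Col_0 1, 2 and 3. The genotypes did not overlap, and the gene rose 1.45-fold, by 0.53 on the log2 scale (SE 0.090, limma adjusted p = 0.0010). Its relative LHCB2.2 had 325, 415 and 368 FPKM in hy5, against 283, 325 and 299 FPKM in Col_0, with hy5 4 just above Col_0 2 (limma adjusted p = 0.058). LHCB2.1, the most abundant of the family, had 575 ± 61.7 FPKM in hy5 and 531 ± 31.5 FPKM in Col_0 and did not pass. Within the family, LHCB2.3 made up 11.0% to 12.3% in hy5 and 8.70% to 9.71% in Col_0.

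The remaining photosystem II antenna genes did not pass. LHCB3 had 698, 807 and 690.4 FPKM in hy5 4, 5 and 6, against 640.0, 637 and 616 FPKM in Col_0 1, 2 and 3, with no overlap (log2 fold change 0.21, SE 0.089, limma adjusted p = 0.11). The linker antenna genes LHCB4.1, LHCB4.2, LHCB5 and LHCB6 had log2 fold changes of 0.02 to 0.12, and hy5 overlapped Col_0 in each. LHCB5, for example, stood at 1926 ± 148 FPKM in hy5 and 1890.3 ± 34.5 FPKM in Col_0 (SD, n = 3 each). LHCB4.3 and LHCB7, rare members of the family, were low, at 2.42 ± 0.60 and 6.31 ± 0.32 FPKM in hy5 against 3.50 ± 0.29 and 7.73 ± 0.62 FPKM in Col_0. Both lay below Col_0 in every hy5 library, without passing (limma adjusted p = 0.070 for LHCB4.3 and 0.13 for LHCB7). LHCB4.3 passed as lower in 1 of 13 alternative fits, without hy5 4 (limma adjusted p = 0.049).

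In the photosystem I antenna the belt proteins and the minor ones differed in sign. LHCA4 (AT3G47470) encodes a belt protein that holds far-red-absorbing chlorophylls. It had 1250.0, 1326 and 1247 FPKM in hy5 4, 5 and 6, against 972, 1031 and 939 FPKM in Col_0 1, 2 and 3. It rose by 29.9% with no overlap (log2 fold change 0.38, SE 0.085, limma adjusted p = 0.0062). LHCA1, its partner in the belt, had 541, 541 and 537 FPKM in hy5, against 420.0, 438 and 504 FPKM in Col_0, and LHCA3 had 957, 986 and 922 FPKM in hy5, against 795, 789 and 885 FPKM in Col_0. Both stood higher in all hy5 libraries but missed the threshold (limma adjusted p = 0.059 and 0.088). Each passed in 2 of 14 alternative fits, with quantile normalization and without Col_0 3, its highest Col_0 library. In the other fits the limma adjusted p reached 0.19 for LHCA1 and 0.25 for LHCA3. LHCA2 overlapped, at 2014 ± 82.9 FPKM in hy5 and 1875 ± 120.0 FPKM in Col_0.

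LHCA5 and LHCA6 are minor proteins that join photosystem I to the chloroplast NDH complex of cyclic electron flow. LHCA5 (AT1G45474) had 62.7, 68.2 and 59.7 FPKM in hy5 4, 5 and 6, against 85.2, 87.8 and 90.9 FPKM in Col_0 1, 2 and 3. It fell, with every hy5 library below every Col_0 library (log2 fold change -0.46, SE 0.085, limma adjusted p = 0.0019). LHCA6 had 67.1, 79.4 and 66.2 FPKM in hy5, against 75.7, 85.7 and 90.5 FPKM in Col_0, with overlap and a limma adjusted p of 0.097. It passed as lower in 1 of 14 alternative fits, without hy5 5 (limma adjusted p = 0.039). The 4 antenna genes with negative differences, LHCA5, LHCA6, LHCB4.3 and LHCB7, thus had Col_0 means of at most 88.0 FPKM, while all 16 antenna genes above 100 FPKM in Col_0 had positive ones. Of these 16, 3 passed, beside 11.7% of all genes tested, and 8 had hy5 wholly above Col_0, beside 20.6%. The line at 100 FPKM was not set in advance. All 21 core genes also lay above it, and 9 of them had positive differences. LHCB2.3, at 85.6 ± 7.13 FPKM in Col_0, was positive at a level like that of LHCA5. Of the 16 antenna genes above 100 FPKM, LHCB1.1 turned to -0.03 and LHCB5 to -0.04 without hy5 5. LHCB5 also turned to -0.0022 with quantile normalization.

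**Figure D3:**
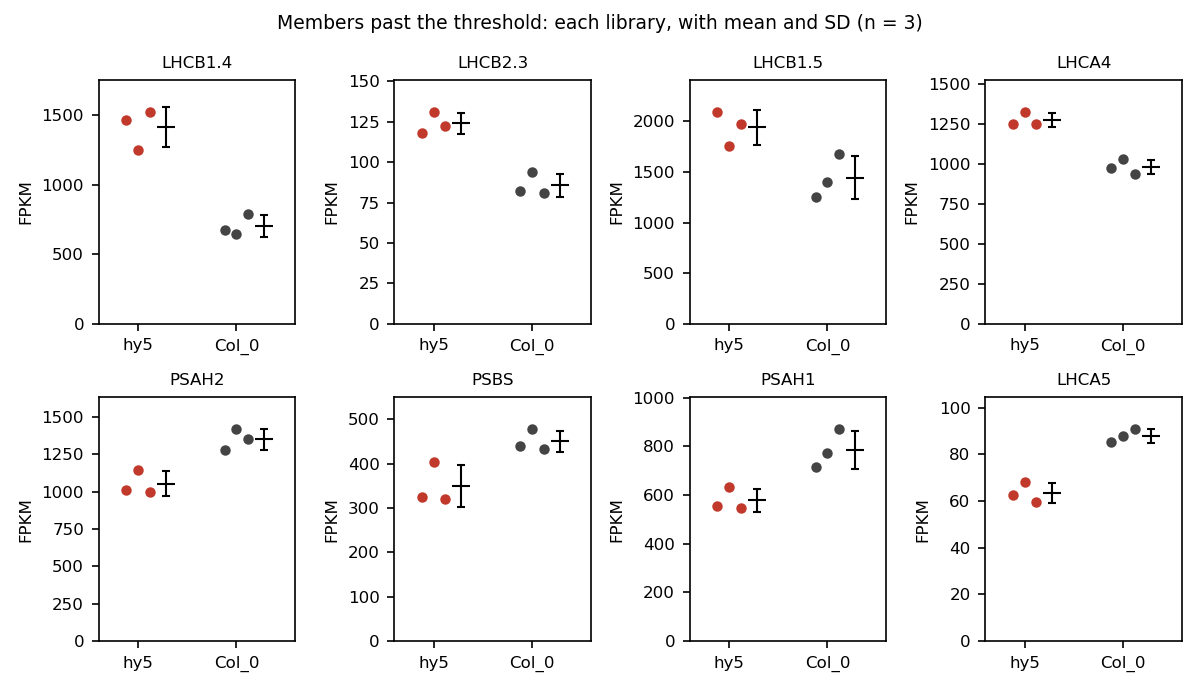
FPKM (y axis, from 0) of the 8 genes past the threshold in each hy5 library (left) and each Col_0 library (right), with mean and SD (n = 3). The upper row holds the 4 genes that rose and the lower row the 4 that fell. In none of them do the genotypes overlap, but the genes were picked by the fit to these same values. Of all genes tested, 40.2% did not overlap.

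PSBS (AT1G44575), which senses the acidity of the thylakoid lumen and triggers the release of excess energy as heat, had 324, 403 and 319.7 FPKM in hy5 4, 5 and 6, against 440.3, 478 and 432 FPKM in Col_0 1, 2 and 3. It fell (log2 fold change -0.37, SE 0.10, limma adjusted p = 0.018). The hy5 5 library was closest to Col_0, and PSBS missed the threshold when hy5 4, hy5 6 or Col_0 2 was left out (limma adjusted p of 0.096, 0.10 and 0.069) and with an untrended, non-robust prior (0.051).

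Among the core subunits of photosystem I, the PSAH genes fell. PSAH forms part of the face of photosystem I at which the mobile antenna docks in state transitions. PSAH1 (AT3G16140) had 555, 633 and 546 FPKM in hy5 4, 5 and 6, against 717, 771 and 871 FPKM in Col_0 1, 2 and 3 (log2 fold change -0.44, SE 0.098, limma adjusted p = 0.0060). PSAH2 (AT1G52230) had 1013, 1147 and 996 FPKM in hy5, against 1277, 1418 and 1350.4 FPKM in Col_0 (log2 fold change -0.36, SE 0.091, limma adjusted p = 0.012). Neither gene overlapped between genotypes, and the ratio of PSAH2 to PSAH1 did overlap, at 1.82 ± 0.0085 in hy5 and 1.72 ± 0.15 in Col_0. PSAH2 missed the threshold when hy5 4, hy5 6 or Col_0 2 was left out, with limma adjusted p-values of 0.073, 0.077 and 0.059.

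The other photosystem I genes did not pass. PSAO and PSAL lie on the same face as PSAH: PSAO stood at 884 ± 61.0 FPKM in hy5 and 1043 ± 116 FPKM in Col_0 (limma adjusted p = 0.11), and PSAL at 1576 ± 122 FPKM in hy5 and 1579.9 ± 30.8 FPKM in Col_0. PSAK and PSAG sit beside the LHCA belt. PSAK had 798, 873 and 782 FPKM in hy5 4, 5 and 6, against 894, 1021 and 886 FPKM in Col_0 1, 2 and 3, lower in all but not past the threshold (limma adjusted p = 0.15), and PSAG had 3118 ± 239 FPKM in hy5 and 3104 ± 243 FPKM in Col_0. PSAF and PSAN, which face plastocyanin in the lumen, differed by -0.04 and -0.03 on the log2 scale.

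PSAD and PSAE form the stromal docking site of ferredoxin, each from a pair of genes. PSAE2 had 417, 371 and 399 FPKM in hy5 4, 5 and 6, against 326, 334 and 345 FPKM in Col_0 1, 2 and 3. It was higher in every hy5 library (log2 fold change 0.24, SE 0.085, limma adjusted p = 0.057). PSAE2 passed as higher in 3 of 14 alternative fits, with quantile normalization, without hy5 5 and without Col_0 3. PSAE1 had 1276 ± 73.5 FPKM in hy5 and 1245 ± 94.6 FPKM in Col_0. Neither PSAD gene passed. PSAD1 had 1017 ± 95.6 FPKM in hy5 and 1127 ± 36.7 FPKM in Col_0, and PSAD2 had 547 ± 41.6 FPKM in hy5 and 519 ± 22.0 FPKM in Col_0. The ratio of PSAD1 to PSAD2 was 1.86 ± 0.034 in hy5 and 2.17 ± 0.033 in Col_0 (SD, n = 3 each), without overlap (exact two-sided permutation p = 0.10, the smallest that 3 against 3 allows).

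None of the 9 photosystem II core genes passed by limma. At an unadjusted limma p under 0.05, 1 was upward (PSBP1) and 1 downward (PSBQ1), and the share of all genes at that p was not counted. PSBO, PSBP and PSBQ shield the manganese cluster that splits water. PSBP1 had 1088, 1184 and 1110.4 FPKM in hy5 4, 5 and 6, against 962, 1051 and 952 FPKM in Col_0 1, 2 and 3 (log2 fold change 0.19, SE 0.086, limma adjusted p = 0.13), so hy5 was higher in all. For PSBO and PSBQ the copies differed in sign: PSBO1 stood at 0.12 and PSBO2 at -0.09, and PSBQ2 at 0.14 and PSBQ1 at -0.23, on the log2 scale. The ratio of PSBO1 to PSBO2 was 4.38 to 4.70 in hy5 and 3.85 to 4.05 in Col_0, and that of PSBQ2 to PSBQ1 was 2.09 to 2.59 in hy5 and 1.73 to 1.96 in Col_0, both without overlap. Of 7 paralog ratios, 4 did not overlap (LHCB1.4 to LHCB1.5, PSAD, PSBO and PSBQ), each with an exact two-sided permutation p of 0.10 and 0.18 adjusted over the 7. The sums of these pairs overlapped between genotypes for PSAD, PSAE, PSBO and PSBQ.

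PSBR, a subunit that helps PSBP to bind, was the most abundant core transcript in Col_0. It had 3036, 3234 and 3088 FPKM in hy5 4, 5 and 6, against 3293, 3472 and 3824 FPKM in Col_0 1, 2 and 3, lower in every hy5 library without passing (log2 fold change -0.18, SE 0.090, limma adjusted p = 0.18). The small membrane subunits PSBW, PSBX and PSBY differed by -0.04 to 0.06 on the log2 scale, and each overlapped. Over all 43 members, 12 had hy5 wholly above Col_0 and 8 wholly below, so 20 did not overlap, beside 20.6%, 19.5% and 40.2% of all genes tested.

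Antenna was then set against core within each library, since the members also varied together. Among the hy5 libraries, hy5 5 held the highest value for 38 of 43 members, and the members made up 11.2% of its summed FPKM, against 10.2% and 10.3% in hy5 4 and 6 and 9.79% to 10.2% in Col_0. The ratio of summed photosystem I antenna to summed photosystem I core was 0.363, 0.340 and 0.357 in hy5 4, 5 and 6, against 0.298, 0.281 and 0.296 in Col_0 1, 2 and 3. For photosystem II it was 2.09, 2.06 and 2.12 in hy5, against 1.82, 1.73 and 1.81 in Col_0. Both ratios were higher in every hy5 library than in any Col_0 library. Without LHCB1.3, the photosystem II ratio was 1.04, 0.997 and 1.04 in hy5, against 0.869, 0.849 and 0.879 in Col_0, again with no overlap. The summed antenna stood at 29918 to 32654 FPKM in hy5 and 25603 to 28039 FPKM in Col_0, while the summed core overlapped, at 25297 to 28368 FPKM in hy5 and 25686 to 28211 FPKM in Col_0. The sums are led by the most abundant genes. By the median log2 level of antenna minus that of core, photosystem I was again higher in every hy5 library (-0.50 to -0.35 in hy5 and -0.95 to -0.75 in Col_0), but photosystem II overlapped (-0.31 to -0.08 in hy5 and -0.70 to -0.30 in Col_0). These values over chosen members carry no test, and the difference between antenna and core was not tested.

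**Figure D4:**
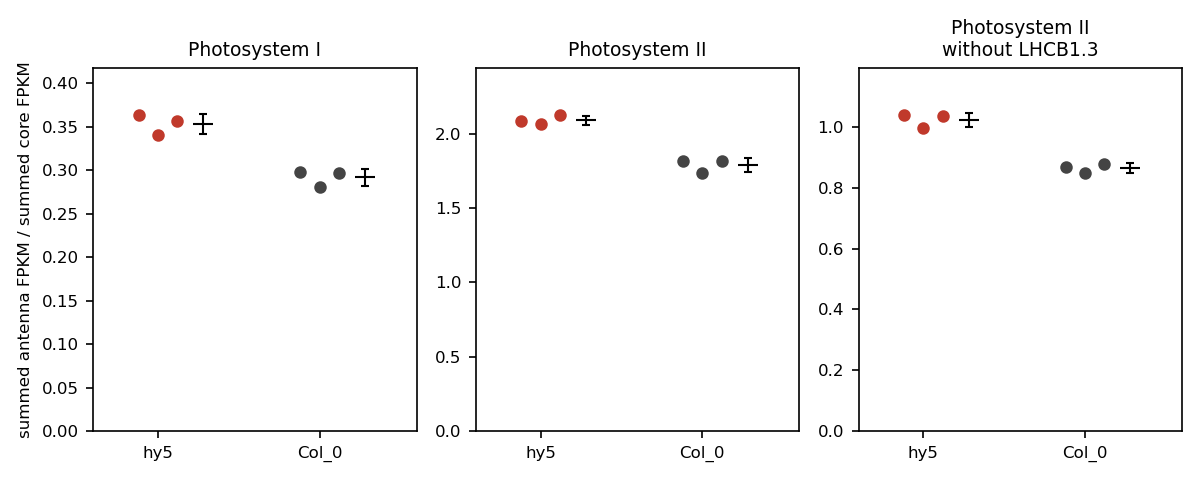
Summed antenna FPKM divided by summed core FPKM (y axis, from 0) for photosystem I, photosystem II and photosystem II without LHCB1.3, in each hy5 library (left of each panel) and each Col_0 library (right), with mean and SD (n = 3). The hy5 points lie above the Col_0 points in each panel, for photosystem I at 0.340 to 0.363 against 0.281 to 0.298.

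Of 12 tested genes of electron transport and the ATP synthase, 2 fell and none rose by limma. At an unadjusted limma p under 0.05, none was upward and 5 were downward, the 2 that fell among them. Differences were negative for 10 of the 12 and positive for 2. In 5 of the 12, hy5 lay wholly below Col_0, beside 19.5% of all genes tested. The 16.7% that fell is near the 11.1% of all genes tested. FD1, a leaf ferredoxin that accepts electrons from photosystem I, had 222, 256 and 221 FPKM in hy5 4, 5 and 6, against 359, 415 and 416 FPKM in Col_0 1, 2 and 3 (log2 fold change -0.77, SE 0.096, limma adjusted p = 0.00011). PGR5, which acts in cyclic electron flow, had 117 ± 1.79 FPKM in hy5 and 158 ± 11.2 FPKM in Col_0 (SD, n = 3 each). The median log2 fold change of the 12 was -0.17. Of 9 genes for antenna targeting, chlorophyll b synthesis and state transitions, 1 fell, a share (11.1%) like that of all genes tested. This was STN8, a kinase that phosphorylates photosystem II core proteins, at 72.1 ± 4.21 FPKM in hy5 and 102 ± 12.2 FPKM in Col_0. STN7, the kinase that phosphorylates LHCB1 and LHCB2, did not pass, at 38.8 ± 3.63 FPKM in hy5 and 42.9 ± 6.03 FPKM in Col_0.

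Of 4 tested relatives of the antenna, small proteins with a like chlorophyll-binding helix, 3 fell, beside 11.1% of all genes tested: OHP1 (212 ± 13.6 FPKM in hy5 and 296 ± 9.24 FPKM in Col_0), OHP2 (231 ± 17.0 FPKM in hy5 and 297 ± 19.8 FPKM in Col_0) and LIL3.1 (67.5 to 85.4 FPKM in hy5 and 88.1 to 106 FPKM in Col_0). OHP1 and OHP2 act in the assembly of photosystem II. The LIL3.1 call (limma adjusted p = 0.048) was lost in 9 of 14 alternative fits and the OHP2 call without hy5 4 (limma adjusted p = 0.088). The light-stress genes ELIP1 and ELIP2 were below the filter, at 0.105 ± 0.026 and 0.445 ± 0.10 FPKM in hy5 and 0.680 ± 0.33 and 0.824 ± 0.057 FPKM in Col_0. None of 5 photosystem assembly factors passed by limma, and none had an unadjusted p under 0.05. Of 6 regulator genes 5 fell, beside 11.1% of all genes tested, and CCA1 did not pass. The 5 include HY5 itself, the gene with the lesion. HYH, the closest relative of HY5, fell to 2.51, 3.49 and 2.08 FPKM in hy5 4, 5 and 6, against 23.3, 25.4 and 26.3 FPKM in Col_0 1, 2 and 3 (log2 fold change -2.83, SE 0.14, limma adjusted p = 7.8e-09). The transcription factor genes GLK1 and GLK2, which are known to activate antenna genes, both fell. GLK1 had 12.9 to 15.5 FPKM in hy5 and 18.5 to 20.4 FPKM in Col_0, and GLK2 had 69.1 ± 2.81 FPKM in hy5 and 92.4 ± 6.39 FPKM in Col_0. LHY, a clock repressor, fell to 82.6 ± 3.08 FPKM in hy5, against 145 ± 28.8 FPKM in Col_0.

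**Figure D5:**
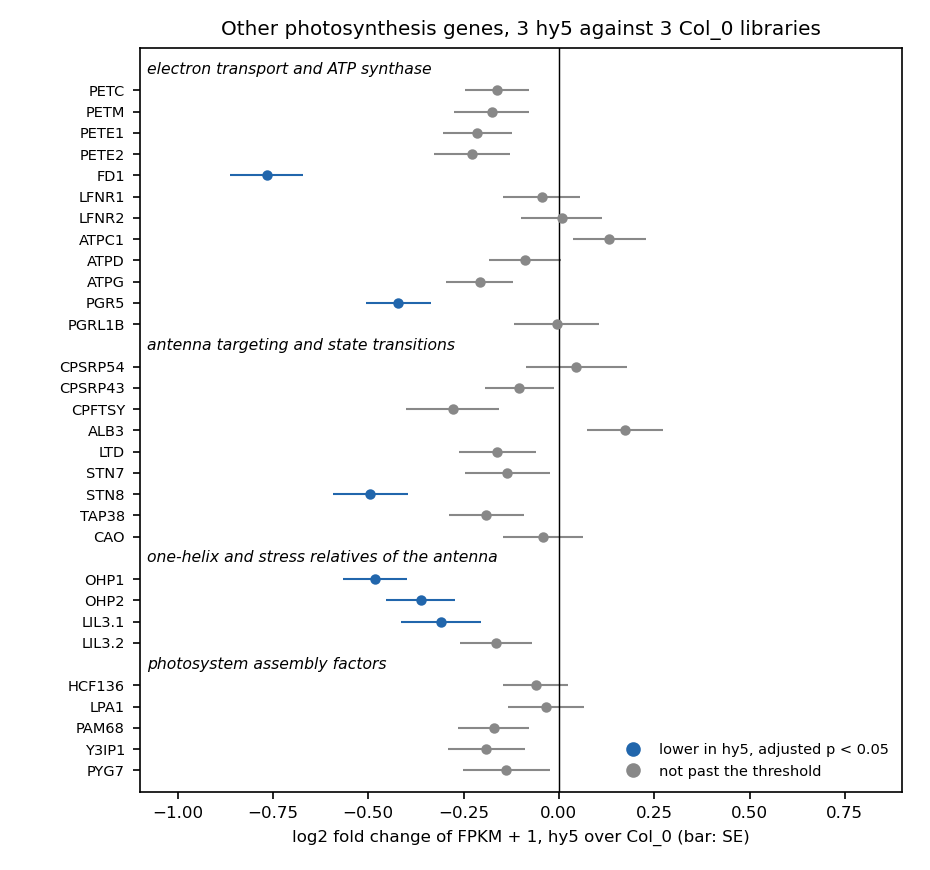
Log2 fold change of FPKM + 1, hy5 over Col_0 (x axis), with SE bars from limma, of tested genes of electron transport, antenna targeting, antenna relatives and assembly (y axis). The genes past the threshold, FD1, PGR5, STN8, OHP1, OHP2 and LIL3.1, all lie left of 0, FD1 farthest at -0.77.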

How the data were processed

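RNA-seq was measured in 6 libraries of whole seedlings, grouped by the sample titles. The authors deposited FPKM per gene and library, per the file headers. Tools listed in the submitters' processing notes, with no role, are Bowtie2, Cufflinks, DESeq 1.18.0, HISAT2 2.2.1.0, TopHat and Trimmomatic 0.36, and the build is TAIR10. Which annotation was counted, whether strand was used and what was done with reads that fit several genes is not given in the sources used here, so values of near-identical copies are uncertain. FPKM is relative to all mapped fragments of a library, and a shift in the most abundant genes can therefore move the rest.

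FPKM was transformed to log2 after adding 1. Genes reaching 1 FPKM in 3 or more libraries were retained, and genotypes were compared by limma 3.58.1 in R 4.3.3, with a trended, robust prior and no covariate. Benjamini-Hochberg adjustment covered the 17205 genes retained, and calls were made at 0.05. The fit was also run on simulated data with independent values per gene and few changed genes, and no result here rests on it. Such data cannot show whether the libraries of a genotype are separate replicates. Fold changes on this scale understate changes of low genes. Class sums, shares and ratios were computed per library with pandas 2.3.3, paralog ratios were compared by an exact permutation test (SciPy 1.17.1), coding identity was computed with Biopython 1.88, and figures were drawn with matplotlib 3.10.9. Transcripts, coordinates and promoters came from RefSeq TAIR10.1, in which all 43 members matched by locus tag. Where RefSeq uses other symbols (such as CAB1 or NPQ4), the family names are printed. FD2, PGRL1A, SEP1 and SEP2 were not analysed here, and 1 further root marker is not reported here. The members and lists were chosen with earlier results of these data known. Members past the threshold are named with a value per library, and list genes where they passed; the other named genes were picked with their values in view. The alternatives were pseudocounts of 0.1 and 5, 2 other filters (none, and 5 FPKM), 3 scalings, a prior without trend, and leaving out each library.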

Additional observations from a re-analysis of the deposited data

How the results depend on the processing

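Of 14 alternatives, only quantile normalization and leaving out a library moved any of the counts given here by over 1.5 times. Leaving out 1 library at a time gave 2028 to 4309 genes called over all genes (3915 with all libraries, 2201 without hy5 4 and 2028 without hy5 6), 3 to 7 members higher (4) and 2 to 6 lower (4), 3 to 6 antenna genes higher (4) and 1 to 2 lower (1), and 0 to 1 core genes higher (0) and 1 to 3 lower (2). The median log2 fold change of the photosystem II core ran between -0.0953 and 0.0894 in these fits. Quantile normalization called 10 members higher, 7 of them antenna and 3 core, and 4 core genes lower. It gives LHCB1.3 a difference near 0 by construction, as that gene ranked second in every library. LHCA4, LHCA5, LHCB1.4, LHCB2.3 and PSAH1 kept their calls under all 14 alternatives. Some core genes not called in the main fit passed in alternatives. PSAE2 passed as higher in 3 of 14 and PSAO as lower in 2 of 14. PSBO1 and PSBP1 passed as higher, and PSBQ1 and PSBR as lower, in 1 of 14 each. LHCB4.3 was not tested with a filter at 5 FPKM. No paired analysis was possible because the titles give the genotypes no shared replicate numbers.

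Members with differences close to 0 changed sign. Leaving out 1 library gave log2 fold changes of -0.0255 to 0.160 for LHCB1.1, -0.0383 to 0.0605 for LHCB5, -0.0119 to 0.0950 for PSAE1, -0.115 to 0.0292 for PSAF, -0.0557 to 0.0627 for PSAG, -0.0620 to 0.0498 for PSAL, -0.0559 to 0.0082 for PSAN, -0.0953 to 0.118 for PSBX and -0.0984 to 0.0023 for PSBY. Quantile normalization gave -0.0022 for LHCB5 and -0.0312 for PSAG, and upper quartile scaling gave -0.0038 for PSAG. The cause was not tested. A number of 3 libraries per genotype and unknown depth limit what small differences can show.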
